A study of Mus musculus with 6 samples.

Results

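The genes described here are the 33 genes of glycolysis, of glucose and lactate transport and of the switch that sends pyruvate to lactate or into the mitochondrion. The rule goes by gene name, uses no measured value and matches the names in the authors' deposited table. All 33 were among the 49315 gene IDs of the count files, and all 33 were among the 23989 genes that had enough counts to be tested. RNA was sequenced from endothelial cells of 4T1 tumours, a transplantable mouse mammary carcinoma, grown in female Balb/c mice given gold nanoparticles. The cells were split by flow cytometry into a fraction that carried nanoparticles (NP+) and a fraction that did not (NP-). The comparison asks how the transcripts of the cells that carried particles differ from those of the remaining endothelial cells. There were 6 libraries, a pair of NP+ and NP- from each of 3 tumours. The tumours carry the names MET-106, MET-107 and, for the last, MET-108.

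The NP+ and NP- libraries share every treatment, since both fractions of a tumour came from the same tissue. 4T1 cells were placed in the inguinal mammary fat pad at 8 weeks of age, and tumours were taken 2 weeks later, at 10 weeks of age. By tail vein, 1 hour before harvest, each mouse received 1E12 gold particles of 50 nm that carried 5 kDa methoxy-polyethylene glycol and the dye Cy5. No group without nanoparticles is analysed here. Before the sort, cells with the leukocyte marker CD45 were depleted and cells with the endothelial marker CD31 were selected on magnetic beads. A library is a pool of sorted cells, and the labels name tumours but not how many mice they came from, so p-values measure the spread between these tumours. In bulk RNA a smaller share of cells of one type and less RNA per cell cannot be told apart.

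Glycolysis splits glucose into pyruvate in the cytosol and yields ATP without oxygen. Endothelial cells draw most of their ATP from this route, and they raise it when they sprout or divide. Hexokinase and phosphofructokinase set its pace, the PFKFB enzymes make the sugar phosphate that switches phosphofructokinase on, and lactate dehydrogenase or the pyruvate dehydrogenase complex takes the pyruvate away. The PDK kinases phosphorylate pyruvate dehydrogenase and shut it off, which keeps pyruvate for lactate. Many of these genes are known targets of the hypoxia-inducible factors (HIF), whose binding sites hold the core letters ACGTG or GCGTG.

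Among the 33 genes, the abundant ones stood higher in NP+ libraries under TMM scaling and most of the scarce isoform genes stood lower, yet no gene passed the threshold of an adjusted p under 0.05. The lowest adjusted p was 0.0887, for Pdk1 (higher in NP+) and for Hk2 (lower in NP+), in edgeR's quasi-likelihood test with Benjamini-Hochberg adjustment over all 23989 genes. The count of genes called was 0 higher and 0 lower, where 0.0125% and 0.0167% of all genes tested were called. At an unadjusted p under 0.05, 11 of the 33 were higher and 1 was lower, where 8.01% of all genes tested were higher and 15.4% were lower. By DESeq2, 6 were higher (Slc2a1, Pfkl, Tpi1, Gapdh, Pgk1 and Pdk1) and 1 was lower (Hk2) at an adjusted p under 0.05, where DESeq2 called 3.51% of 27784 genes higher and 11.3% lower. With the tumour as a replicate block, edgeR called 0 of the 33, where 0.00834% of all genes were called higher and 0.0542% lower. limma-voom with that block called 7 of the 33 higher and 1 lower, where it called 2.03% of all genes higher and 4.49% lower.

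Levels below are counts scaled to library size (CPM) with TMM factors, a scaling that assumes most genes do not differ, and they are given in the order MET-106, MET-107 and MET-108 within each group. Fold changes are NP+ over NP-. In 13 of the 33 genes every NP+ library lay above every NP- library, in 3 every NP- library lay above, and in 17 the groups overlapped. The same was so for 13.3% of all genes tested with NP+ above and 15.6% with NP- above. Within tumours, 17 of the 33 were higher in NP+ in all 3 pairs and 5 were lower in all 3, where the shares of all genes were 20.0% and 30.2%. The median log2 fold change of the 33 was 0.42, against -0.29 for all genes tested.

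**Figure D1:**
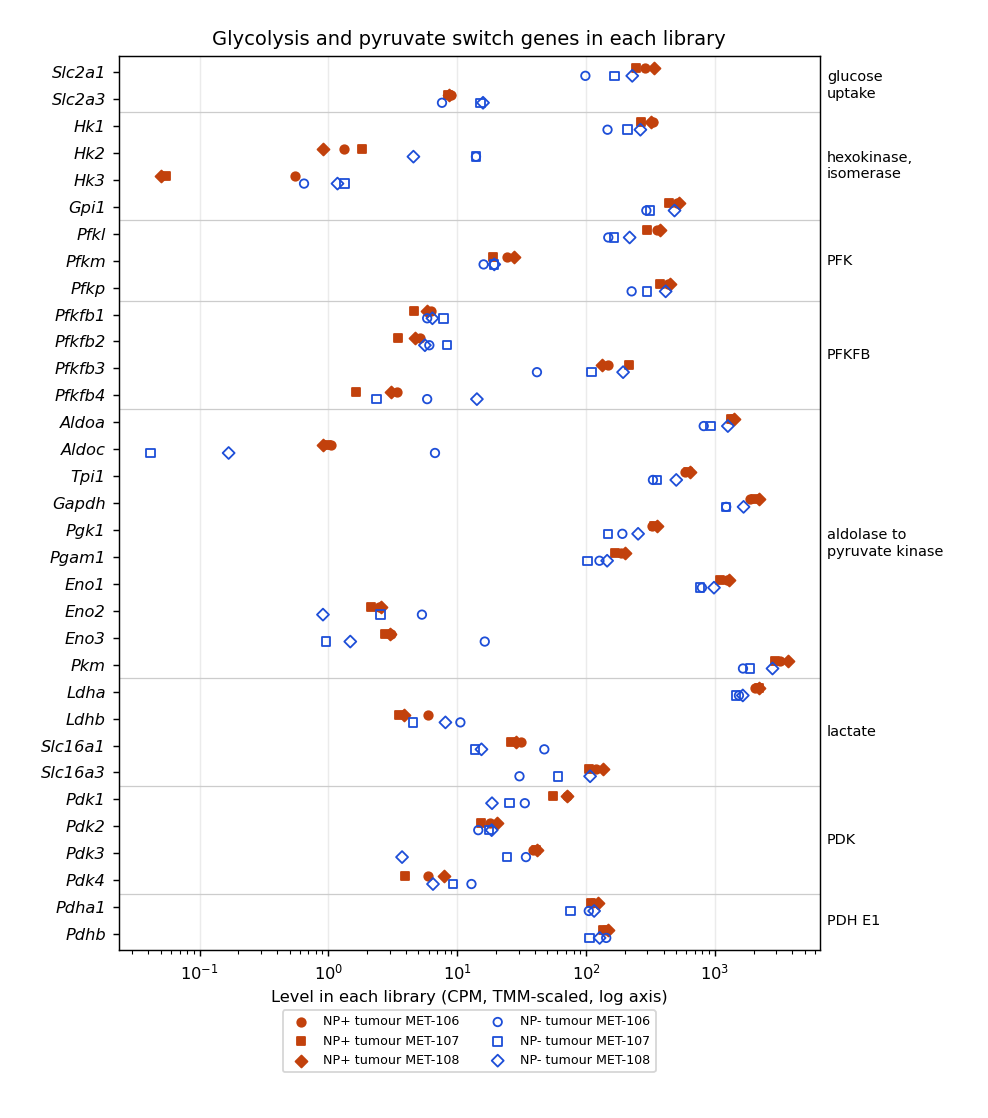
Level of each of the 33 genes in each of the 6 libraries (CPM after TMM scaling, log axis), with filled marks for NP+ and open marks for NP- libraries and 1 shape per tumour. The genes of the main route stand at the right of the axis with NP+ to the right, while Hk2, Hk3 and Pfkfb2 stand with NP+ to the left without overlap.

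Level and direction went together in these libraries as a whole. Of the 2153 genes with a mean of at least 100 CPM, 33.4% were higher in NP+ at an unadjusted p under 0.05 and 1.39% lower, and the NP+ libraries lay wholly above in 46.2% and wholly below in 1.11%. Their median log2 fold change was 0.36. The 16 glycolysis and pyruvate genes at that level had a median of 0.54, and all 16 had a fold change above 0. Of those 16, 10 were higher at an unadjusted p under 0.05 and 11 had NP+ wholly above, so their shares are read against those of abundant genes and not against the lower shares of all genes.

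The scaling also moved every value by a common amount. With total gene counts in place of TMM the median of all genes was -0.59 and that of the 33 was 0.12. Of the 33, 3 genes then had NP+ wholly above (Pfkl, Pgk1 and Pdk1) and 7 had NP- wholly above (Slc2a3, Hk2, Hk3, Pfkfb1, Pfkfb2, Ldhb and Pdk4), where the shares of all genes were 4.79% and 23.0%. At an unadjusted p under 0.05 that scaling gave 3 of the 33 higher (2.54% of all genes) and 5 lower (21.0% of all genes). Pfkl and Pdk1 had NP+ wholly above, and Hk2, Hk3 and Pfkfb2 had NP- wholly above, under each of TMM, total-count and upper-quartile scaling. The sum of the 33 genes took 1.17%, 1.24% and 1.31% of the gene counts in NP+ libraries, against 0.874%, 0.985% and 1.26% in NP- libraries, and the groups overlapped.

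**Figure D2:**
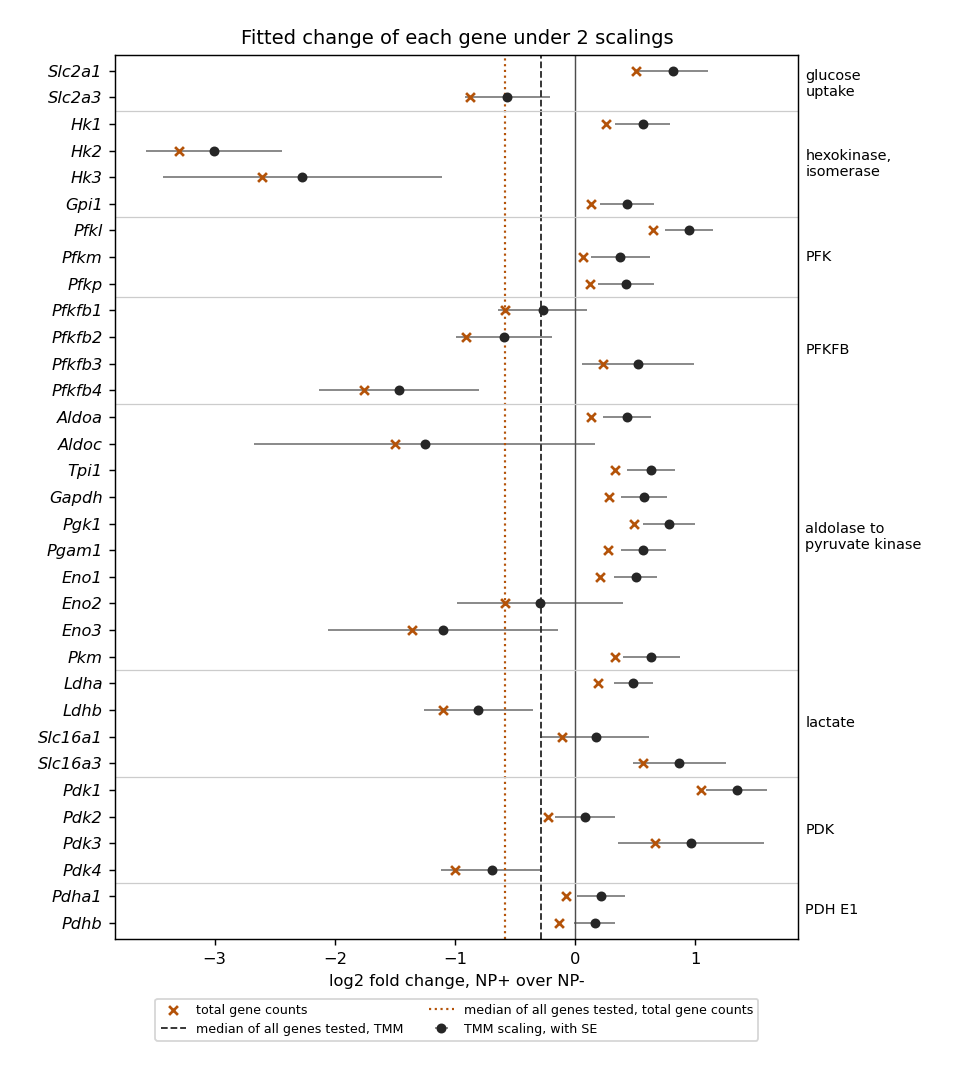
Fitted log2 fold change (NP+ over NP-) of each gene, with its SE (bars), under TMM scaling (dots) and under total gene counts (crosses). The dashed and dotted lines are the medians of all genes tested, -0.29 and -0.59, and each gene shifts to the left by about as much as the median does.

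The NP- libraries differed from each other more than the NP+ libraries did. The 6 libraries held between 20856410 and 58089600 gene counts. Endothelial identity was clear in all of them: 12 of 12 endothelial markers were detected everywhere, summing to between 13252 and 15217 CPM in NP+ and between 8487 and 11198 CPM in NP-. The NP- library of MET-106 held 3834 CPM over 10 fibroblast markers, 892 CPM over 10 mural cell markers and 639 CPM over 11 epithelial and tumour cell markers. In the other NP- libraries the fibroblast sums were 178 and 69.5 CPM, the mural sums 284 and 164 CPM and the epithelial sums 41.8 and 23.1 CPM. NP+ libraries held between 18.6 and 62.1 CPM of fibroblast, between 98.6 and 125 CPM of mural and between 8.65 and 14.5 CPM of epithelial markers. None of the 10 fibroblast and 10 mural markers was at 0 in any library, while 3, 1 and 1 of the 11 epithelial markers were at 0 in the NP+ libraries and 0, 1 and 2 in the NP- libraries. Macrophage markers summed to between 22.2 and 32.7 CPM in NP+ and between 51.4 and 133 CPM in NP-, lymphocyte markers to between 5.82 and 6.17 CPM in NP+, against between 17.2 and 38.1 CPM in NP-, and skeletal muscle markers to between 6.12 and 8.45 CPM in NP+ and between 17.8 and 34.3 CPM in NP-. Adipocyte markers summed to between 2.28 and 3.11 CPM in NP+, against between 3.32 and 7.28 CPM in NP-, and erythroid and platelet markers to between 18.5 and 25.1 CPM in NP+ and between 12.3 and 73.6 CPM in NP-. Neutrophil markers (9 genes) summed to 150 CPM in the NP- library of MET-107, against between 4.64 and 22.3 CPM elsewhere. Pecam1, which encodes the CD31 used for selection, averaged 3291 ± 500 CPM in NP+, against 2353 ± 449 CPM in NP-, and Ptprc, which encodes CD45, averaged 4.48 ± 0.997 CPM in NP+ and 13.9 ± 10.4 CPM in NP- (SD, n = 3 each). The part of these differences in the results below was not tested. Fold changes without the NP- library of MET-106 are given for Hk2, Slc16a1, Aldoc, Eno2 and Eno3 only, and those of other genes may move too. Over all settings fitted, the log2 fold change ran from 0.17 to 1.39 for Pfkfb3 and from 0.56 to 1.44 for Slc16a3.

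The promoter windows of 4 genes are shown because these genes had the smallest p of the higher genes (Pdk1, Pfkl and Pgk1) and of the lower genes (Hk2), so that the shared letters can be seen next to opposite directions. Each runs 5′ to 3′ on the gene's own strand, from 250 bases before to 50 bases after the RefSeq start in the build GRCm38.p6 of the C57BL/6J reference strain, while the mice were Balb/c. Capitals mark ACGTG or GCGTG on either strand, so a match on the other strand reads CACGT or CACGC. The windows are chr2:71872974-71873273 (+) for Pdk1, chr10:78009758-78010057 (-) for Pfkl, chrX:106186850-106187149 (+) for Pgk1 and chr6:82774405-82774704 (-) for Hk2. A second RefSeq start of Pdk1 is not shown.
Pdk1: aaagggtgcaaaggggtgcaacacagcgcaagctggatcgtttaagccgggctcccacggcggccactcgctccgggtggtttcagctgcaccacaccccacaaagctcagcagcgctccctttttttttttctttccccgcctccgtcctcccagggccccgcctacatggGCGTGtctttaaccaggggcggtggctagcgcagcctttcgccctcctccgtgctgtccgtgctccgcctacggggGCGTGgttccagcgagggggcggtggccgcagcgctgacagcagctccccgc
Pfkl: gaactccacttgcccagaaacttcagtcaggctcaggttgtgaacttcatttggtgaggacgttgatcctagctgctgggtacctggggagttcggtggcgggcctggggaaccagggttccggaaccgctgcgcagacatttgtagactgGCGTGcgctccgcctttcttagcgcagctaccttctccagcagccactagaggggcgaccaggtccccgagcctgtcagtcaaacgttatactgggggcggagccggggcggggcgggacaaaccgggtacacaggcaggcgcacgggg
Pgk1: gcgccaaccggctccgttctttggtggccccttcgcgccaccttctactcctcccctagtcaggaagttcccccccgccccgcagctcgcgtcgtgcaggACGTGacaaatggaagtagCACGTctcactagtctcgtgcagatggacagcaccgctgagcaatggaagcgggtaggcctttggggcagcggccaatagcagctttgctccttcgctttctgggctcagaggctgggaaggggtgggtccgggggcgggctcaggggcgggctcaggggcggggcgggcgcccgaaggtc
Hk2: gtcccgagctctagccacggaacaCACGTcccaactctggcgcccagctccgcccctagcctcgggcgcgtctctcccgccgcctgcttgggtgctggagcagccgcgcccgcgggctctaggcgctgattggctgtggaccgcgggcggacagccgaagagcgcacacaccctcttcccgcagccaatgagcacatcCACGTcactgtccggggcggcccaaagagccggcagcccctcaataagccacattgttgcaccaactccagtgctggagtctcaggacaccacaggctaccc

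Pdk1 held GCGTG at 78 and 2 bases before the start, Pfkl held GCGTG at 99 bases before it, and Pgk1 held ACGTG at 150 bases and its reverse CACGT at 131 bases before it. Hk2 held CACGT at 226 and 52 bases before the start, so the core letters stood in genes of both directions. Of the 32 genes with a window in RefSeq, 29 held a core in at least 1 window (90.6%), where 46.7% of 27025 mouse genes did. Counted by window, 39 of 51 windows of these genes (76.5%) and 43.8% of all 32851 windows held one. Ldha had the most matches in 1 window, 7, and Gpi1, Tpi1 and Eno2 had 0. A match describes the letters of the reference and is not evidence of HIF binding in these cells, and a window without a match says nothing of the factor. The matches overlap where ACGTG and CACGT share letters, and both are then counted.

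Of the 2 glucose transporter genes among the 33, Slc2a1 had by far the higher level, and it encodes GLUT1, the main glucose transporter of endothelium. Slc2a1 (chromosome 4, 119108711 to 119137983, GRCm38) stood at 287, 244 and 335 CPM in NP+, against 98.9, 166 and 229 CPM in NP-. All NP+ libraries lay above all NP- libraries, and the NP- library of MET-106 was the lowest. The means were 289 ± 45.6 CPM in NP+ and 164 ± 64.8 CPM in NP- (SD, n = 3 each), with a log2 fold change of 0.81 (SE 0.29, adjusted p = 0.165 by edgeR, 0.0397 by DESeq2). With total counts the groups overlapped and the log2 fold change was 0.51. Slc2a3, which encodes the high-affinity transporter GLUT3, averaged 8.71 ± 0.295 CPM in NP+, against 12.9 ± 4.59 CPM in NP-, and the groups overlapped (log2 fold change -0.57, SE 0.35). Per kilobase of exon, Slc2a1 took 98.5 ± 0.21% of the summed level of both genes in NP+ and 96.3 ± 0.508% in NP-, and these shares did not overlap. The shares leave out other glucose transporter genes, of which Slc2a10, named after its values were seen, stood between 34.7 and 49.3 CPM in NP+ and between 13.9 and 30.2 CPM in NP-.

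Most transcripts for hexokinase, which traps glucose as glucose 6-phosphate, were of Hk1, and the scarce Hk2 stood lower in NP+ in all 3 tumours. Hk1, the housekeeping isoform, stood at 332, 265 and 318 CPM in NP+, against 147, 209 and 265 CPM in NP-. The lowest NP+ library, at 265.4 CPM, was next to the highest NP- library, at 264.5 CPM, so the groups nearly met. The log2 fold change of Hk1 was 0.56 (SE 0.23), with an adjusted p of 0.197 by edgeR. Hk2, an isoform of muscle, fat and many tumours (chromosome 6, 82725025 to 82774454), stood at 1.32, 1.82 and 0.903 CPM in NP+, against 13.99, 13.97 and 4.57 CPM in NP-. Every NP- library was above every NP+ library, and the NP- library of MET-108 was the lowest of its group. The mean in NP- was 8.05 times that in NP+, with a log2 fold change of -3.00 (SE 0.56, adjusted p = 0.0887 by edgeR, 1.79e-05 by DESeq2).

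The level of Hk2 was set beside that of genes that these cells should not express. Summed over 1106 olfactory receptor genes, the level for a gene of the length of Hk2 gives a floor for each library, and Hk2 stood at 6.87, 3.12 and 2.67 times it in NP+ and at 27.7, 5.56 and 2.30 times it in NP-. In MET-108 the multiple was thus no higher in NP- than in NP+. With the floor taken off, Hk2 was at 1.13, 1.24 and 0.565 CPM in NP+, against 13.5, 11.5 and 2.59 CPM in NP-, and the groups did not overlap. Without the NP- library of MET-106, which held most fibroblast and epithelial transcripts, the log2 fold change of Hk2 was -2.72, with an adjusted p of 0.0431 by edgeR. That fit called 3.48% of all genes higher and 4.86% lower. Over all settings fitted, the adjusted p of Hk2 ran from 1.79e-05 by DESeq2 to 0.399 by edgeR with fewer libraries. The share of Hk2 in the summed hexokinase level per kilobase was 0.562%, 0.971% and 0.404% in NP+, against 11.9%, 8.59% and 2.39% in NP-, without overlap. Hk1 took 99.2 ± 0.314% of that sum in NP+ and 91.3 ± 4.81% in NP-.

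Hk3, the hexokinase of myeloid cells, was at 0.549, 0.0546 and 0.0502 CPM in NP+, against 0.647, 1.33 and 1.18 CPM in NP-. Its NP- libraries lay above its NP+ libraries. Against the olfactory receptor floor it stood at 4.64, 0.152 and 0.241 times in NP+ and at 2.08, 0.858 and 0.96 times in NP-. Hk3 was thus above the floor in both libraries of MET-106, where its multiple was higher in NP+, and not detectable above it in the libraries of MET-107 and MET-108. Gpi1, which turns glucose 6-phosphate into fructose 6-phosphate, had the highest level per kilobase of these 4 genes, 76.2 ± 7.2 CPM per kilobase in NP+ and 56.6 ± 16.4 in NP-. It stood at 512, 439 and 525 CPM in NP+, against 294, 314 and 487 CPM in NP-. Its groups overlapped through the NP- library of MET-108, and the log2 fold change was 0.43 (SE 0.22, edgeR adjusted p = 0.272). Of the exonic bases of Gpi1, 11.5% are shared with Gm26762 on the other strand. The library kit does not mark strand, and the strand setting of the counts is not given in the sources used here.

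Phosphofructokinase commits the sugar to glycolysis, and its liver-type gene Pfkl had the smallest p of the genes between glucose uptake and pyruvate that stood higher in NP+. Pfkl (chromosome 10, 77986947 to 78010083) stood at 356, 298 and 375 CPM in NP+, against 149, 166 and 218 CPM in NP-. The groups lay far apart, with the lowest NP+ library well above the highest NP- library, and the NP+ level was 2.39, 1.80 and 1.72 times the NP- level of the same tumour. Means were 343 ± 40.2 CPM in NP+ and 178 ± 36.1 CPM in NP- (SD, n = 3 each), with a log2 fold change of 0.95 (SE 0.20). The adjusted p was 0.102 by edgeR, 0.0977 with the tumour block and 0.00221 by DESeq2. With total counts the log2 fold change was 0.65, with an unadjusted p of 0.00729 in edgeR's fit over all genes.

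The other phosphofructokinase genes had smaller fold changes, and the makeup of the step differed between the groups. Pfkp, the platelet-type gene, averaged 419 ± 39.5 CPM in NP+ and 313 ± 95.6 CPM in NP- (log2 fold change 0.42, SE 0.23, edgeR adjusted p = 0.293), and the groups overlapped. Pfkm, the muscle-type gene, averaged 23.7 ± 4.48 CPM in NP+ and 18.3 ± 1.92 CPM in NP- (log2 fold change 0.37, SE 0.25), also with overlap. Per kilobase, Pfkl took 59.9%, 59.4% and 59.7% of the summed phosphofructokinase level in NP+, against 53.5%, 49.7% and 49.4% in NP-. Pfkp took 34.0%, 35.0% and 33.7% in NP+, against 38.0%, 41.7% and 44.0% in NP-. Both shares were separated between the groups without overlap, and a share within a library does not depend on how libraries are scaled to each other. Of the exonic bases of Pfkm, 10.2% are shared with Gm26513 on the same strand.

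**Figure D3:**
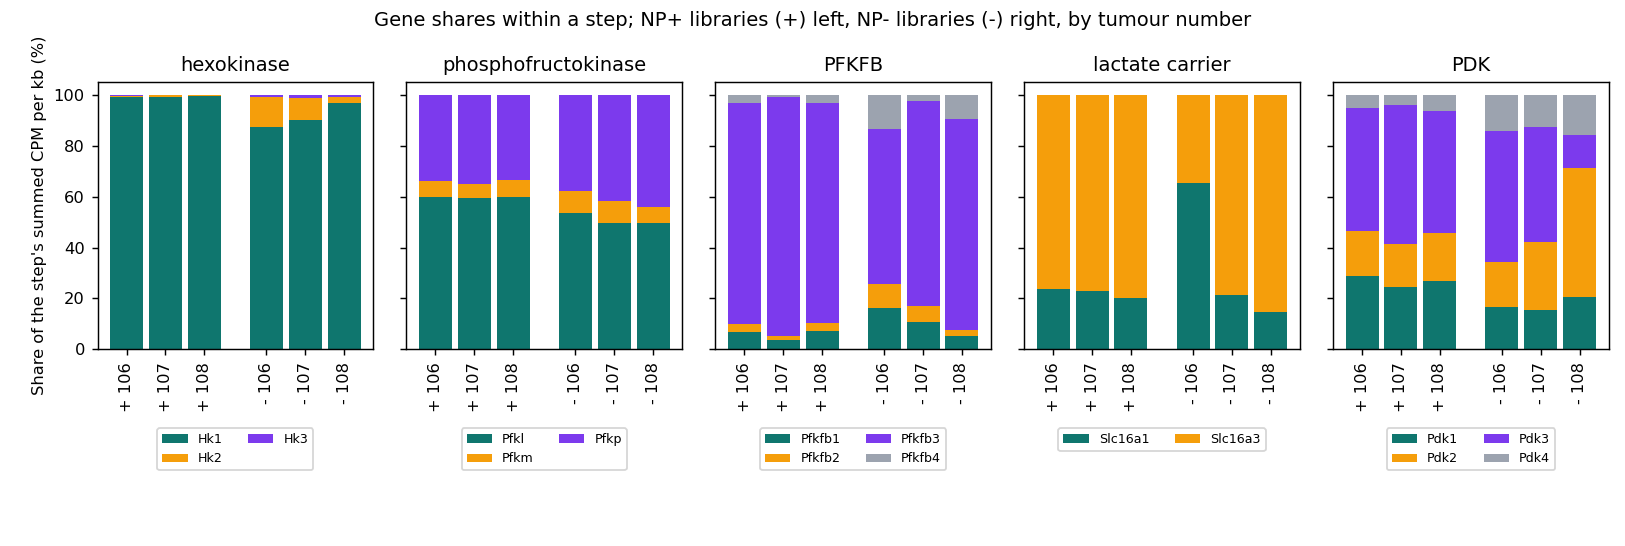
Share of the summed level per kilobase of a step that each gene takes (percent, bars from 0 to 100), with the NP+ libraries left and the NP- libraries right in each panel. Pfkl takes 59.4% to 59.9% in every NP+ library and less in every NP- library, Hk2 takes 0.971% or less in NP+ bars, and the NP- library of MET-106 stands apart for the lactate carriers.

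Among the PFKFB genes, Pfkfb3 held most of the level, and the groups were not separated. Pfkfb3, whose enzyme drives glycolysis in sprouting vessels, stood at 148, 217 and 132 CPM in NP+, against 41.6, 111 and 194 CPM in NP-. NP+ was higher in MET-106 and MET-107 and lower in MET-108, where the ratio was 0.681. The log2 fold change was 0.52 (SE 0.47, edgeR adjusted p = 0.497). Per kilobase Pfkfb3 took 86.9%, 93.6% and 86.5% of the PFKFB level in NP+, against 61.2%, 80.3% and 82.9% in NP-, and these shares did not overlap. The olfactory receptor floor was not taken off these shares, and in NP- of MET-107 Pfkfb4 stood at 1.15 times it. With the floor taken off, the shares of the groups come closer, without overlap. Pfkfb2, known from heart, stood at 5.13, 3.44 and 4.72 CPM in NP+, against 6.08, 8.36 and 5.62 CPM in NP-, with NP- above in every library (log2 fold change -0.59, SE 0.40, edgeR adjusted p = 0.376). With the olfactory receptor floor taken off, the groups of Pfkfb2 overlapped.

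The remaining PFKFB genes were scarce. Pfkfb1, known from liver, averaged 5.56 ± 0.82 CPM in NP+ and 6.71 ± 1.03 CPM in NP-. Pfkfb4 averaged 2.71 ± 0.946 CPM in NP+ and 7.48 ± 6.1 CPM in NP-, where MET-108 alone reached 14.2 CPM. The groups overlapped for both genes, with log2 fold changes of -0.27 (SE 0.37) and -1.47 (SE 0.67).

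In the later part of the route, between aldolase and pyruvate kinase, 7 of 10 genes had NP+ above NP- in every library and 6 were higher at an unadjusted p under 0.05. These 7 are the abundant gene of each step, and of all genes with at least 100 CPM 46.2% had NP+ wholly above and 33.4% were higher at that p. With total counts Pgk1 alone of the 10 kept its groups apart. Pgk1, which makes the first ATP of the route (chromosome X, 106187100 to 106203699), stood at 324, 336 and 358 CPM in NP+, against 192, 148 and 254 CPM in NP-. The NP+ libraries lay close together and above all NP- libraries, with a log2 fold change of 0.78 (SE 0.22, adjusted p = 0.128 by edgeR, 0.0269 by DESeq2). Tpi1, which interconverts the triose phosphates, stood at 586, 615 and 638 CPM in NP+, against 331, 356 and 502 CPM in NP-. Its groups did not overlap, and the log2 fold change was 0.63 (SE 0.20, adjusted p = 0.145 by edgeR, 0.0348 by DESeq2).

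Gapdh, often used as a loading control, was itself higher in NP+ under TMM scaling. It stood at 1889, 2036 and 2207 CPM in NP+, against 1226, 1227 and 1672 CPM in NP-, with no overlap and a log2 fold change of 0.57 (SE 0.19, adjusted p = 0.151 by edgeR, 0.0459 by DESeq2). With total counts the log2 fold change was 0.28 and the groups overlapped. Pkm, which encodes pyruvate kinase M and led the 33 genes per kilobase in NP+ together with Ldha, stood at 3192, 2926 and 3711 CPM in NP+, against 1655, 1875 and 2805 CPM in NP-. The NP- library of MET-108 came close to the lowest NP+ library, and the log2 fold change was 0.63 (SE 0.24, edgeR adjusted p = 0.17). Counts per gene do not separate the splice forms of Pkm, and 15.3% of the exonic bases of Pkm are shared with Gm49759 on the same strand.

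Pgam1, the phosphoglycerate mutase gene, stood at 188, 167 and 201 CPM in NP+, against 127, 103 and 146 CPM in NP- (log2 fold change 0.56, SE 0.19). Eno1, the ubiquitous enolase gene, stood at 1234, 1094 and 1289 CPM in NP+, against 794, 770.5 and 985.5 CPM in NP- (log2 fold change 0.50, SE 0.18). Both lay above NP- in every library, with edgeR adjusted p-values of 0.15 and 0.161. The near-identical copy Eno1b stood at 211, 183 and 210 CPM in NP+, against 133, 137 and 157 CPM in NP-, so reads of the pair may be split between them. Aldoa, the aldolase of muscle and most other tissues, stood at 1332, 1327 and 1400 CPM in NP+, against 820, 930 and 1263 CPM in NP-. Its NP+ libraries were nearly equal and above all NP- libraries (log2 fold change 0.43, SE 0.20, edgeR adjusted p = 0.232).

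The 3 scarce genes of these steps did not separate the groups and depended on the NP- library of MET-106. Eno3, the muscle enolase gene, averaged 2.94 ± 0.162 CPM in NP+, against 16.4, 0.956 and 1.48 CPM in NP-. Aldoc, the brain aldolase gene, averaged 0.977 ± 0.0703 CPM in NP+, against 6.73, 0.0416 and 0.168 CPM in NP-. Eno2, the neuronal enolase gene, averaged 2.39 ± 0.236 CPM in NP+, against 5.33, 2.54 and 0.908 CPM in NP-. In each the NP- library of MET-106, the one with the raised fibroblast and epithelial sums, was the highest of all 6. Their log2 fold changes were -1.10 (SE 0.96), -1.25 (SE 1.42) and -0.29 (SE 0.69) with all libraries and 1.32, 3.20 and 0.54 without that library. The latter values compare NP+ with NP- levels near or under the olfactory receptor floor. In NP- of MET-107 and MET-108, Eno3 stood at 1.31 and 2.56 times it, Aldoc at 0.0303 and 0.155 times and Eno2 at 1.28 and 0.58 times.

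Ldha stood far above Ldhb in every library, and per kilobase Slc16a3 stood above Slc16a1 in all libraries but the NP- library of MET-106. Ldha, which turns pyruvate into lactate, stood at 2052, 2215 and 2218 CPM in NP+, against 1540, 1456 and 1649 CPM in NP-. NP+ lay above NP- in every library with little spread in either group, and the log2 fold change was 0.48 (SE 0.16, adjusted p = 0.152 by edgeR, 0.0519 by DESeq2). Ldhb, which favours the reverse reaction, averaged 4.44 ± 1.28 CPM in NP+ and 7.74 ± 3.05 CPM in NP- with overlap (log2 fold change -0.81, SE 0.45). Per kilobase, Ldha was 165, 299 and 270.5 times Ldhb in NP+, against 69.0, 152 and 96.5 times in NP-. The lowest NP+ ratio lay above the highest NP- ratio. The olfactory receptor floor was not taken off these ratios, and in NP- of MET-107 Ldhb stood at 6.85 times it. With the floor taken off, Ldhb was at 5.85 CPM in NP+ of MET-106 and at 3.87 CPM in NP- of MET-107. The ratios of the groups then overlapped, with NP- of MET-107 above NP+ of MET-106.

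Slc16a3, which encodes the lactate exporter MCT4, stood at 121, 106.5 and 135 CPM in NP+, against 30.5, 60.7 and 107.6 CPM in NP-. It was higher in NP+ within each tumour, by 3.96, 1.76 and 1.25 times, and the groups overlapped narrowly, with 106.5 CPM in NP+ of MET-107 against 107.6 CPM in NP- of MET-108. The log2 fold change was 0.87 (SE 0.39, edgeR adjusted p = 0.22). Slc16a1, which encodes MCT1, a carrier for lactate in both directions, stood at 31.5, 26.1 and 28.7 CPM in NP+, against 47.5, 13.7 and 15.4 CPM in NP-. It was lower in NP+ in MET-106 and higher in the other tumours (log2 fold change 0.17, SE 0.45). Without the NP- library of MET-106 the log2 fold change was 1.03, with an edgeR adjusted p of 0.0423, in a fit that called 3.48% of all genes higher. With all libraries the edgeR adjusted p of Slc16a1 was 0.827. Slc16a3 was 3.19, 3.40 and 3.91 times Slc16a1 per kilobase in NP+, against 0.534, 3.68 and 5.80 times in NP-.

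**Figure D4:**
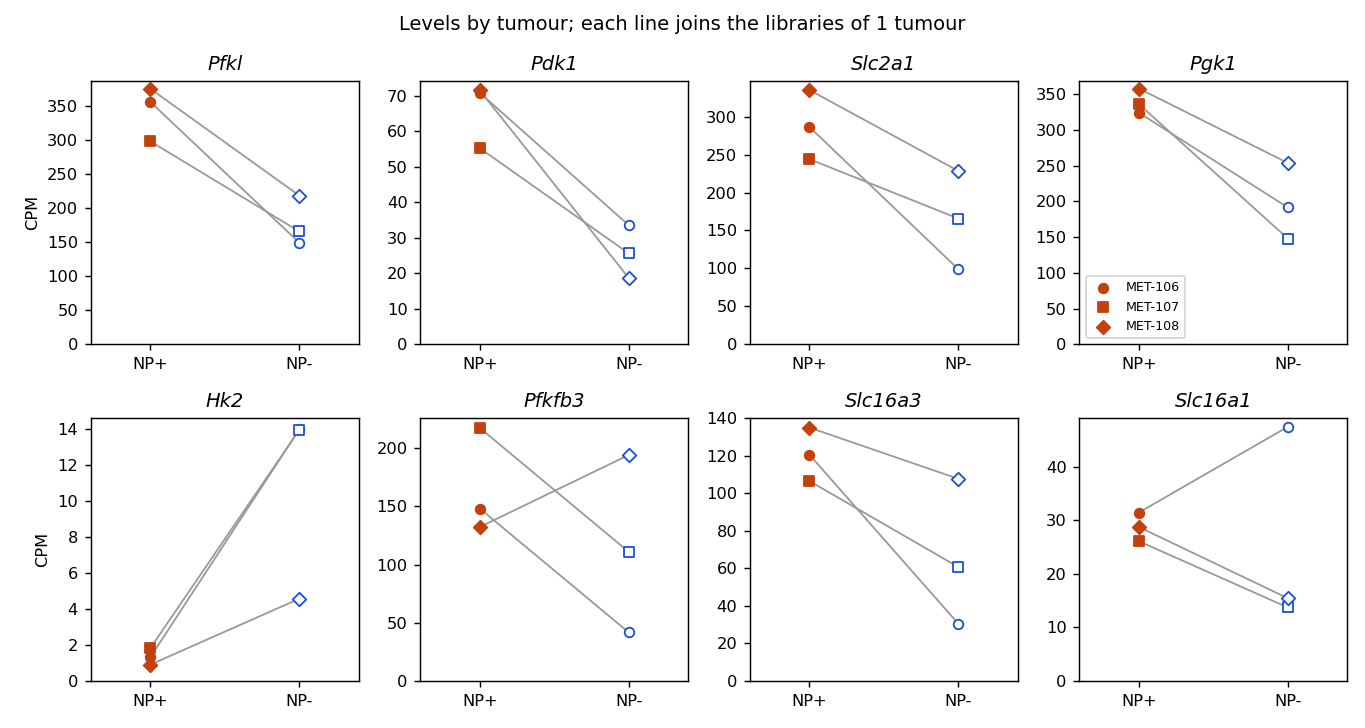
Levels of 8 genes (CPM, linear axes from 0) in the NP+ and NP- libraries of each tumour, with a line joining the libraries of 1 tumour. All lines fall toward NP- for Pfkl, Pdk1, Slc2a1, Pgk1 and Slc16a3, all climb toward NP- for Hk2, and Pfkfb3 and Slc16a1 hold 1 line against the others.

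Of the kinases that shut off pyruvate dehydrogenase, Pdk1 had the largest positive fold change of the 33 genes in the edgeR fit with all libraries and no block. With the tumour block the log2 fold change was 1.38 for Pdk3 and 1.37 for Pdk1. Pdk1 (chromosome 2, 71873224 to 71903858) stood at 70.8, 55.2 and 71.5 CPM in NP+, against 33.5, 25.6 and 18.6 CPM in NP-. The groups lay apart, and NP+ was 2.11, 2.16 and 3.84 times NP- within the tumours. Means were 65.8 ± 9.21 CPM in NP+ and 25.9 ± 7.44 CPM in NP- (SD, n = 3 each), with a log2 fold change of 1.34 (SE 0.25). The adjusted p was 0.0887 by edgeR, 0.0972 with the tumour block and 0.00114 by DESeq2. With total counts the log2 fold change was 1.04, with an unadjusted p of 0.00213 in edgeR's fit over all genes.

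Pdk3, the kinase gene with the highest level per kilobase in NP+, stood at 39.0, 40.6 and 41.9 CPM in NP+, against 34.2, 24.4 and 3.73 CPM in NP-. The NP+ libraries were nearly equal and above NP-, whose MET-108 library was far below the others (log2 fold change 0.96, SE 0.61, edgeR adjusted p = 0.346). Pdk2 averaged 17.9 ± 2.48 CPM in NP+ and 16.9 ± 2.09 CPM in NP-, with overlap (log2 fold change 0.08, SE 0.25). Pdk4, the kinase gene induced by fasting and fatty acids, averaged 5.92 ± 1.96 CPM in NP+ and 9.57 ± 3.22 CPM in NP-, also with overlap (log2 fold change -0.69, SE 0.42). Within the summed kinase level per kilobase, Pdk1 took 28.7%, 24.5% and 26.9% in NP+, against 16.6%, 15.6% and 20.7% in NP-. Pdk4 took 5.37%, 3.87% and 6.54% in NP+, against 14.2%, 12.6% and 16.0% in NP-. Both shares were separated between the groups in opposite directions.

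The fold changes of their target enzyme were small and their sign depended on scaling. Pdhb, the beta subunit gene of pyruvate dehydrogenase E1, stood at 138, 136 and 148 CPM in NP+, against 144, 106.8 and 128 CPM in NP-, with overlap. Pdha1, the alpha subunit gene that carries the phosphorylated sites, averaged 115 ± 7.38 CPM in NP+ and 98.8 ± 20.7 CPM in NP-, with overlap. The log2 fold changes were 0.16 (SE 0.17) and 0.22 (SE 0.20), and both signs turned with total counts, to -0.13 and -0.08. Per kilobase, Pdk1 stood at 0.304, 0.242 and 0.278 times Pdha1 in NP+, against 0.153, 0.162 and 0.0773 times in NP-, without overlap. Set against Gapdh in the same way, Pdk1 stood at 0.0199, 0.0144 and 0.0172 times in NP+, against 0.0145, 0.0111 and 0.00592 times in NP-, and the groups overlapped. Of the exonic bases of Pdha1, 16.1% are shared with Map3k15 on the other strand.

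Ranked per kilobase of exon, Pkm, Ldha, Gapdh and Aldoa led in both groups. In NP+ the highest levels were Pkm at 655 ± 79.8, Ldha at 653 ± 28.7, Gapdh at 495 ± 38.5 and Aldoa at 360 ± 10.8 CPM per kilobase. In NP- they were Ldha at 468 ± 29.3, Pkm at 422 ± 122, Gapdh at 333 ± 62.2 and Aldoa at 267 ± 61.3 CPM per kilobase. Pkm and Ldha did not differ beyond their spread in either group. Slc2a1, Pfkl and Gpi1, at 82.3 ± 13, 78.0 ± 9.14 and 76.2 ± 7.2 CPM per kilobase in NP+, likewise did not differ beyond their spread. The lowest was Hk3, at 0.0592 ± 0.0779 in NP+ and 0.286 ± 0.0973 in NP- CPM per kilobase.

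**Figure D5:**
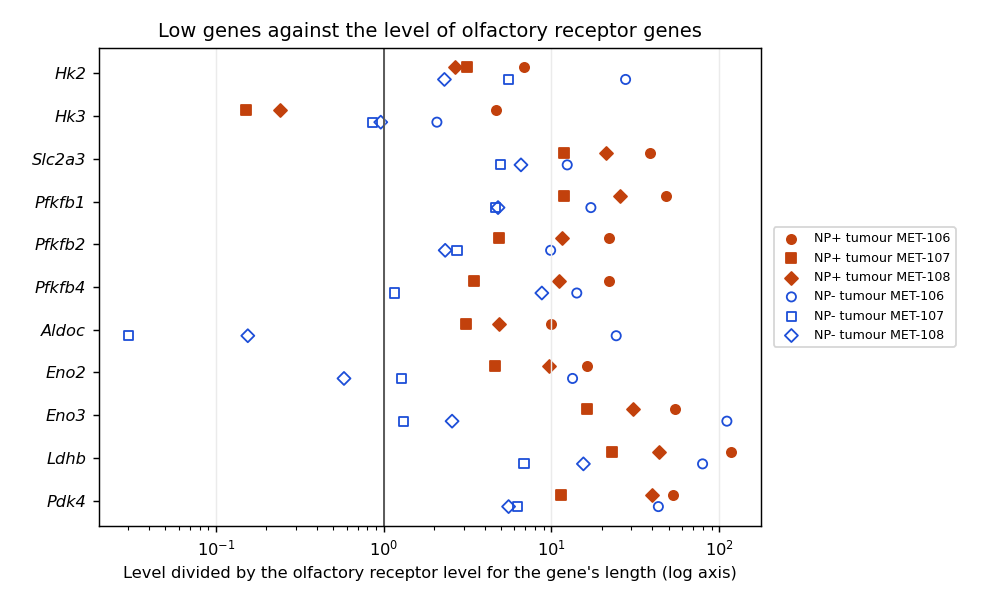
Level of 11 scarce genes in each library, divided by the olfactory receptor level for the gene's length (log axis, with the line at 1 marking equality). Hk3 lies between 0.152 and 4.64, and Hk2 lies between 2.30 and 27.7 with both groups mixed. For most of the other genes the NP+ mark lies to the right within each tumour, but across tumours the groups are mixed. In Aldoc and Eno3 the NP- mark of MET-106 lies furthest to the right. The NP- marks of MET-107 and MET-108 for Aldoc, and of MET-108 for Eno2, lie left of the line. The olfactory receptor level itself was between 0.0321 and 0.0977 CPM per kilobase in NP+ and between 0.0847 and 0.421 in NP-.

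The authors' deposited table, made with DESeq2, gives an adjusted p for 31 of the 33 genes. In it 6 of these were higher in NP+ and 1 was lower at an adjusted p under 0.05, where 3.71% of its 25298 genes with an adjusted p were higher and 9.45% lower. Its log2 fold changes run the other way, NP- over NP+. The authors' deposited table gives -1.41 for Pdk1 (adjusted p = 0.000783), -1.03 for Pfkl (adjusted p = 0.00154) and 2.94 for Hk2 (adjusted p = 2.8e-05). In the authors' deposited table Pkm and Ldha lay just past the threshold, with adjusted p-values of 0.0508 and 0.0546. For Aldoc and Eno3 it lists no adjusted p.

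With the olfactory receptor floor taken off each gene, a reading chosen after seeing the data, 15 of the 33 genes had NP+ wholly above and 1, Hk2, had NP- wholly above. The shares of all genes were then 16.4% and 8.25%. Pfkm and Slc16a3 joined those with NP+ above, and Hk3 and Pfkfb2 no longer had NP- above.

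The neighbouring pathways were read from lists chosen with earlier results known, and 0 genes of any of these lists passed an adjusted p under 0.05 in edgeR's test. Of 16 enzymes of the TCA cycle, 7 were higher and 0 lower at an unadjusted p under 0.05, with a median log2 fold change of 0.30, and DESeq2 called 1 higher at an adjusted p under 0.05. At that unadjusted p 8.01% of all genes tested were higher and 15.4% lower, and 33.4% of those with at least 100 CPM were higher, while DESeq2 called 3.51% of all genes higher and 11.3% lower. Cs, the citrate synthase gene, averaged 350 ± 29.6 CPM in NP+ and 220 ± 31 CPM in NP- (log2 fold change 0.67, edgeR adjusted p = 0.126). Sdha (succinate dehydrogenase) averaged 323 ± 28.2 CPM in NP+ and 236 ± 13.2 CPM in NP-. Of 10 tested genes in a list for pyruvate entry and the rest of the dehydrogenase complex, 3 were higher and 0 lower. These were Dlat and Dld (E2 and E3 of the complex) and Slc25a1, a mitochondrial citrate carrier that belongs to neither. DESeq2 called 1 gene of the list higher at an adjusted p under 0.05.

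Of 27 other isoform genes and transporters, 5 were higher and 6 lower at an unadjusted p under 0.05, and DESeq2 called 5 higher and 4 lower at an adjusted p under 0.05, beside 8.01% and 15.4% of all genes by edgeR and 3.51% and 11.3% by DESeq2. Adpgk, an ADP-dependent glucokinase gene, averaged 68.0 ± 3.95 CPM in NP+ and 15.2 ± 10.1 CPM in NP- (log2 fold change 2.15, SE 0.41, edgeR adjusted p = 0.0901), and its groups did not overlap. Bsg, whose product basigin escorts MCT1 and MCT4 to the membrane, averaged 576 ± 3.52 CPM in NP+ and 396 ± 37.2 CPM in NP- (edgeR adjusted p = 0.139), and Pgm2, a phosphoglucomutase gene, 209 ± 7.8 CPM in NP+ and 141 ± 14.2 CPM in NP-. Of 23 side-branch enzymes 5 were higher and 2 lower (2 and 2 called by DESeq2), and Pgd of the pentose phosphate route averaged 118 ± 7.18 CPM in NP+, against 69.1 ± 5.76 CPM in NP- (edgeR adjusted p = 0.102). Gys1, which makes glycogen, averaged 53.0 ± 9.06 CPM in NP+ and 32.4 ± 5.85 CPM in NP-. Phgdh, the entry to serine synthesis, averaged 1.76 ± 0.627 CPM in NP+, against 27.4, 3.78 and 5.11 CPM in NP-. Of 6 gluconeogenesis genes 0 were higher and 1 lower (0 and 1 called by DESeq2). Of these, G6pc3 averaged 48.6 ± 5.03 CPM in NP+ and 36.3 ± 2.65 CPM in NP-, Pck2 67.9 ± 10.4 CPM in NP+, against 57.5 ± 2.24 CPM in NP-, and Fbp2 25.0 ± 11.3 CPM in NP+ and 29.8 ± 7.7 CPM in NP-.

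Among 25 regulators of glycolysis genes 5 were higher and 5 lower at an unadjusted p under 0.05, and DESeq2 called 1 higher and 2 lower at an adjusted p under 0.05, where the shares of all genes were 8.01% and 15.4% by edgeR and 3.51% and 11.3% by DESeq2. Hif1a, the oxygen-regulated HIF subunit gene, stood at 1223, 839 and 1120 CPM in NP+, against 590, 506 and 182 CPM in NP-, without overlap (log2 fold change 1.32, SE 0.39, edgeR adjusted p = 0.139). Klf4, a flow-induced factor gene of quiescent endothelium, averaged 28.9 ± 2.12 CPM in NP+ and 56.2 ± 6.03 CPM in NP- (log2 fold change -0.96, SE 0.19, edgeR adjusted p = 0.0928). Vhl, whose product marks HIF for breakdown, averaged 54.5 ± 8.65 CPM in NP+ and 35.6 ± 6.98 CPM in NP-. HIF activity is set mainly by protein stability, which RNA does not measure. Of 19 HIF targets outside glycolysis, 1 was higher and 2 lower (1 and 1 called by DESeq2), and their summed level was 2148, 1963 and 2341 CPM in NP+, against 1231, 1492 and 2250 CPM in NP-, with overlap. Ero1l (oxidative protein folding) averaged 128 ± 16.4 CPM in NP+ and 48.2 ± 22.6 CPM in NP-, Ankrd37 63.6 ± 6.83 CPM in NP+, against 36.8 ± 24.4 CPM in NP-, and Lox (collagen cross-linking) 1.48 ± 0.455 CPM in NP+, against 55.6, 4.41 and 2.52 CPM in NP-. Lox and Phgdh were highest in the NP- library of MET-106, beside its raised fibroblast and epithelial sums.

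Proliferation markers, which often accompany glycolysis genes, summed to 897, 615 and 485 CPM over 10 genes in NP+, against 889, 243 and 160 CPM in NP-. The groups overlapped, and 0 of the 10 had an unadjusted p under 0.05 in edgeR's test or an adjusted p under 0.05 by DESeq2. The NP- library of MET-106 stood next below the highest NP+ library in these markers. Among genes with at least 100 CPM on average, it was the lowest of all 6 in Slc2a1, Hk1, Gpi1, Pfkl and Pfkp. The same held for Pfkfb3, Aldoa, Tpi1, Gapdh and Pkm, but not for Pgk1, Pgam1, Eno1, Ldha, Pdha1 or Pdhb. Of the scarcer genes it was the lowest in Slc2a3, Pfkm, Slc16a3 and Pdk2 alone. It was the highest of all 6 in Slc16a1, Hk2, Aldoc, Eno2, Eno3, Ldhb and Pdk4. A link between these markers and the glycolysis genes was not tested.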

How the data were processed

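RNA was measured in 6 libraries of sorted tumour endothelial cells, 3 NP+ and 3 NP-, made with the SMART-Seq v4 kit and read as pairs of 150 bp, per the labels' protocols. The kit marks neither strand nor molecules, so counts are of reads and not of molecules. The authors deposited whole-number counts, 1 for each gene in each library. The submitters' processing notes name STAR 2.5.2b, Trimmomatic 0.036, Subread 1.5.2 with featureCounts, DESeq2 and the build GRCm38 (mm10). No annotation, strand or multi-mapping setting is given in the sources used here, so counts of copies and overlapping genes are uncertain, and 13 of the 33 genes share exonic bases with another gene. The authors' deposited table also holds a signal per library, which is a size-factor-normalized count. It gives log2 fold changes of NP- over NP+, p-values and adjusted p-values from the authors' own test. Dividing out the size factors gave whole reads, within 0.01 reads, for 100% of 156426 values, and 100% equalled the deposited counts.

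All genes were fitted with edgeR 4.0.16 (R 4.3.3) by the quasi-likelihood test without a block, after TMM scaling and filterByExpr with a minimum count of 10, which kept 23989 genes. Benjamini-Hochberg adjustment ran over these genes, and the threshold was 0.05. The SE is |log2 fold change| over the root of the F statistic. CPM use the tested counts times the TMM factor as library size, and CPM per kilobase divide them by the counted exon length. The fit was run on simulated data with 200 changed genes, drawn with equal spread in both groups and without tumour pairs. It therefore does not show how the fit behaves with the wider NP- spread of these libraries. The alternatives were the tumour block, DESeq2 1.42.0, limma-voom (limma 3.58.1), scaling by total counts, upper quartiles or RLE, no filter, at least 5 CPM in 3 libraries, a threshold of 0.1, and each library or tumour left out. Chosen after seeing the data were limma-voom with the block, the recovered reads, the share among genes with at least 100 CPM, the counts of separated groups without a tumour or under other scalings, and the olfactory receptor level taken off.

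NP+ and NP- libraries are paired by tumour, per the labels, and within the pairs the deviations from group means correlated at 0.282, 0.214 and 0.021. The genes, lists, tests and rules were chosen with earlier results of these data known. By rule, genes at an unadjusted p under 0.05, with separated groups or with the highest level per kilobase of their role are given in every library. Of each neighbouring list, up to 3 genes with the smallest p and a mean of at least 5 CPM are named, besides Pecam1 and Ptprc. A gene that this rule names is not reported here. Promoter windows are from RefSeq (GRCm38.p6), and 32 of the 33 genes matched one by symbol.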

Additional observations from a re-analysis of the deposited data

How the results depend on the processing

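Of 619 fold changes of the 33 genes refitted under up to 19 other settings, 568 kept their direction and their side of the 0.05 threshold, 25 passed it and 26 changed sign. Among these settings, the recovered reads equalled the deposited counts, so that refit could hardly differ. In 26 of the 33 genes no setting changed the sign. The tumour as replicate block (paired fit) called 0 genes higher and 0 lower, as without it, and at an unadjusted p it had 12 higher and 1 lower. It changed no adjusted call of the 33, but the log2 fold changes of Aldoc, Eno2 and Eno3 turned to 1.35, 0.015 and 0.13.

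At an adjusted p under 0.05, DESeq2 gave 6 genes higher and 1 lower and limma-voom with the block 7 and 1. The fit with no low-count filter gave 3 (Slc2a1, Pfkl and Pdk1) and 1 (Hk2), among 1.19% and 1.55% of all genes. At a threshold of 0.1, 1 was higher and 1 lower. Leaving out 1 library gave between 0 and 3 higher and between 0 and 1 lower. Without the NP- library of MET-106 Pfkl, Slc16a1 and Pdk1 were higher and Hk2 lower (3.48% and 4.86% of all genes), and without that of MET-108 Pfkl was higher and Hk2 lower (0.428% and 0.671% of all genes). At an unadjusted p under 0.05, leaving out 1 library gave between 7 and 16 higher and between 1 and 3 lower, where the shares of all genes ran from 3.89% to 12.3% and from 7.85% to 22.4%. Upper-quartile scaling gave 2 and 4 (3.27% and 19.6% of all genes), total counts 3 and 5, no filter 17 and 2 (6.43% and 12.2%), and at least 5 CPM 3 and 4 (6.44% and 8.75% of all genes). Without tumour MET-107 it was 4 and 2 (4.81% and 7.81%), and without MET-106 12 and 2 (3168 and 4007 of 26306 genes). DESeq2, limma-voom and limma-voom with the block gave 2 lower (22.7%, 7.45% and 20.9%). Higher at that p by DESeq2 were Slc2a1, Hk1, Pfkl, Aldoa, Tpi1, Gapdh, Pgk1, Pgam1, Eno1, Pkm, Ldha, Slc16a3 and Pdk1 (8.66% of all genes). To these limma-voom added Gpi1 and Pdk3 (9.26%), and with the block also Pfkp (8.95%). Separated groups numbered 2 with NP+ above and 5 with NP- above under upper-quartile scaling (6.12% and 20.3%), 3 and 7 under total counts, and 15 and 1 with the olfactory receptor level taken off. Without MET-106, MET-107 or MET-108, 17, 17 and 18 had NP+ above (23.7%, 23.0% and 21.2% of all genes) and 6, 5 and 5 had NP- above (33.9%, 28.8% and 25.7%). All tumours pointed up in 9 genes with upper-quartile scaling (9.53%) and in 11 with total counts (7.73%), where 9 pointed down (39.5%).

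The log2 fold change turned without the NP- library of MET-106 to 3.20 for Aldoc, 0.54 for Eno2 and 1.32 for Eno3, and without both libraries of that tumour to 3.29, 0.65 and 1.43. limma-voom gave 0.54 for Aldoc. Leaving out 1 library, the values ran from -1.82 to 3.20 for Aldoc, -0.70 to 0.54 for Eno2, -1.60 to 1.32 for Eno3 and -0.12 to 1.03 for Slc16a1, and Slc16a1 was at -0.069 and -0.068 without both libraries of MET-107 or MET-108. With upper-quartile scaling, total counts and at least 5 CPM, values were -0.043, -0.11 and -0.078 for Slc16a1, -0.18, -0.23 and -0.20 for Pdk2, -0.033, -0.075 and -0.047 for Pdha1, and -0.081, -0.13 and -0.10 for Pdhb. Shares by CPM in place of CPM per kilobase were 43.6% in NP+ and 35.3% in NP- for Pfkl, and 50.5% in NP+ and 35.9% in NP- for Pdk1. The causes were not tested. With 3 tumours, changes below about the SEs given are not resolved, and changes well above their SE need not pass the threshold. Hk2 at -3.00 (SE 0.56) and Pdk1 at 1.34 (SE 0.25) had edgeR adjusted p-values of 0.0887. Genes near the olfactory receptor level are limited by it.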
